A study of Rattus norvegicus with 22 samples.

Results

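The 10 genes described here encode proteins that serous glands of the tongue and other salivary glands secrete: Vegp1, Vegp2, Lipf, Plunc, RGD1563047, LOC171161, Prb1, Amy1a, Tff2 and Car6. They were taken by their names on the array, 10 of the 26583 gene names it carries, with the brightest probe where a gene had several. The genes were chosen by their measured values, as most of the 10 lay among the largest differences between OSCC and normal tissue in these same arrays. The difference between the tissues is therefore given for the 10 genes as a description, without a test. The same holds for how they moved together, which was also known when they were chosen.

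Oral squamous cell carcinoma (OSCC) of the tongue and adjacent phenotypically normal tongue tissue came from 11 male F344 rats, 1 piece of each per rat. All the rats had received 4-nitroquinoline-1-oxide (4-NQO), a carcinogen that forms DNA adducts, at 20 ppm in drinking water over 10 weeks. Tissue was taken 23 to 26 weeks after the first exposure. The age was about 33 weeks for rats kept to week 26, and lower for any taken earlier. The sample titles call all 22 pieces untreated and give the normal pieces no treatment, whereas the protocol takes both pieces from the same exposed rats. The normal pieces are thus exposed tissue, and no unexposed rat is among the arrays. RNA of each piece was measured on a 1-colour Agilent array. A level is given here as the log2 of a probe's signal over the 75th percentile of its array, so that 0 is that percentile and 1 unit is 2-fold. A probe is called well above background where the scanner software set that mark.

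Von Ebner's glands are small serous glands in the back of the tongue, which open into the trenches around the circumvallate and foliate papillae, where many taste buds lie. They secrete lipocalins, which carry small lipophilic molecules, and lingual lipase, which starts the digestion of fat. Minor mucous glands lie close to them and secrete gel-forming mucins and trefoil peptides. Other serous salivary products are amylase, proline-rich proteins and proteins of the BPI-fold family, which bind lipids and bacterial products at mucosal surfaces.

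The identity of each transcript rests on its probe. Vegp1 is now called Lcn1, Plunc is Bpifa1, RGD1563047 is Bpifb1, LOC171161 is Csap1 and Amy1a is Amy1. The transcript printed as Prb1 on the array is now called Prpmp5, while another gene bears the symbol Prb1 today. Probes are 60 bases long. The Vegp1 probe lies at chr3:4881854-4881913 on the plus strand and the Vegp2 probe at chr3:4862703-4862762 on the minus strand of rat assembly rn4. Tff2 is measured at chr20:9492341-9492400, minus strand. Whether a probe lies in coding or untranslated sequence is not given in the annotation used here. The first 30 bases of these 3 probes are shown, 5′ to 3′. Vegp1 and Vegp2 are close relatives, and Tff2 behaved differently from the rest.
Vegp1: ggcaaacaggtactctacatcataccatct
Vegp2: tacacagacccactgggcacaggacacaga
Tff2: cctcagcagtggctggacacagtgtctttc
Over the 45 pairs of the 10 probes, the longest run of bases that any 2 shared was 9. This compares probes with each other only. No probe was compared with the transcript of another gene. Whether the Vegp1 and Vegp2 probes each bind both transcripts was therefore not tested.

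RefSeq promoters of assembly GRCr8, from 250 bases before to 50 after a listed transcript start, were given for 7 of the 10 genes. For Vegp2 and LOC171161 that start lies inside the span of the gene. Distances below refer to the listed start. Lipf, Tff2 and Car6 are not among them. The 2 von Ebner's gland lipocalin genes stand on opposite strands of chromosome 3, and 297 of 298 aligned bases of their promoters were identical at a shift of 2 bases. No other pair among the 7 exceeded 35.1% at its best shift. The letters TATAAA were found in 6 of the 7 promoters, searched on both strands, and in 14.2% of the 33469 promoters listed. In the stretch from -40 to -16 before the start, chosen after the matches had been seen, they lay in 2 of the 7, the near-identical Vegp1 and Vegp2, and in 1.35% of all. The 100 bases before the start are printed for 4 genes, with TATAAA on the gene's own strand in capitals, to show the near-identity of the lipocalin pair beside 2 genes that had the same profile over the tumors.
Vegp1 (Lcn1), chr3:29930843-29930942, plus strand: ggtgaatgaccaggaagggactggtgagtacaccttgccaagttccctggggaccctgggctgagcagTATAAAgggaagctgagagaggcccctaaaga
Vegp2, chr3:29919163-29919262, minus strand: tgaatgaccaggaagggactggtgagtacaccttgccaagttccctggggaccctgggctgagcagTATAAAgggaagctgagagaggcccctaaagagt
Plunc (Bpifa1), chr3:163087865-163087964, plus strand: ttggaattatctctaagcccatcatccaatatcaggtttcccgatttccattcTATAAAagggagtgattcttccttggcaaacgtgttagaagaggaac
Prb1 (Prpmp5), chr4:167271667-167271766, minus strand: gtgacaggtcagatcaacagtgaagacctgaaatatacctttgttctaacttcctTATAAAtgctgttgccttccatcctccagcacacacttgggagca
The first base of the capitals lay 32 bases before the start in Vegp1, 34 in Vegp2, 47 in Plunc and 45 in Prb1, and farther off, at -84 in Amy1a and -128 in RGD1563047. Searched likewise on both strands, the E-box letters CATATG occurred in none of the 7 promoters, against 4.11% of all. The E-box letters CAGCTG were in none, against 15.1%, and the forkhead-type letters TGTTTAC in none, against 3.78%. These matches describe letters in a window and nothing about binding.

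All of the 10 genes but Car6 were on average far higher in OSCC than in normal tissue, and Car6 was near background in both tissues. By the call used for all genes (limma with rat and tissue as terms, Benjamini-Hochberg adjusted p below 0.05 and at least 2-fold), 9 of the 10 were higher in OSCC, against 6.64% of all gene names, and none was lower, against 7.06%. Over all probes, 2083 (6.86%) were higher and 2118 (6.97%) lower. The paired t-test named in the methods, unadjusted, put 9 of the 10 higher too, against 6.71% of gene names. Since these values chose the genes, nothing is read from that count. The median difference of the 10 was 7.84 on the log2 scale, or 6.54 with genes that had no normal array well above background set to the lower limit of their difference (0 where there was none), and that of all gene names was -0.25. A difference in the number of gland cells and a difference in RNA per gland cell cannot be told apart in such bulk tissue. The size of the differences depends on how signals near background are treated, since most normal levels lie there. With normexp background correction the differences of the 9 genes were between 4.20 for Tff2, which was then not called, and 7.35 for Vegp2.

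**Figure D1:**
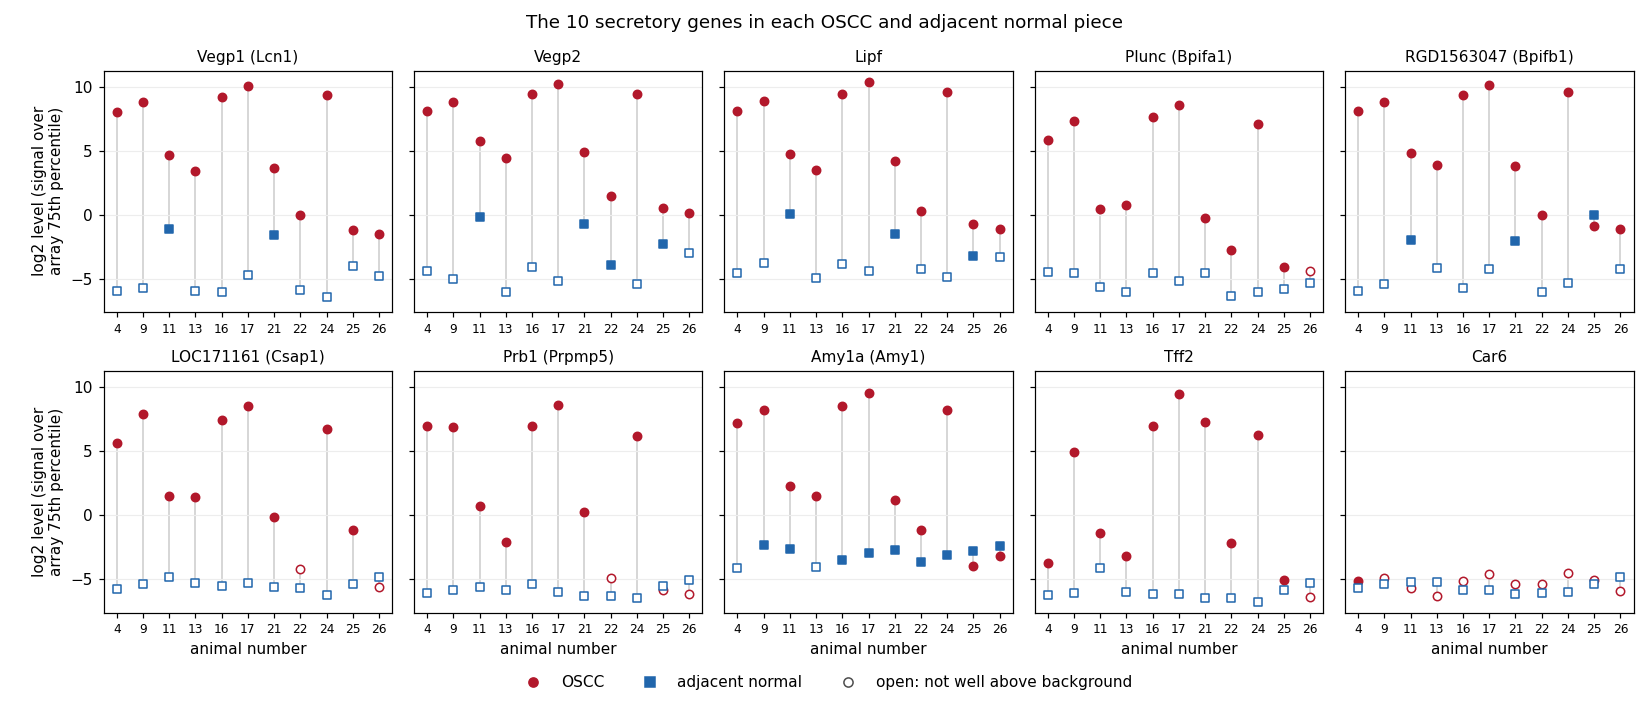
Log2 level (y axis, signal over the array's 75th percentile) of each of the 10 genes in the OSCC piece (circles) and the adjacent normal piece (squares) of each of 11 rats (x axis), joined by a line, with open symbols where the probe was not well above background. The OSCC pieces of animals 4, 9, 16, 17 and 24 stand highest for 8 of the genes, those of animals 22, 25 and 26 lowest, and Car6 stays near the bottom of the scale throughout.

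Vegp1 and Vegp2 are the lipocalins of von Ebner's glands. Vegp1 was at -1.54 in the lowest OSCC piece, 4.66 in the median one and 10.07 in the highest, and at -6.41, -5.74 and -1.11 in normal tissue. The OSCC pieces of animals 4, 9, 16, 17 and 24 held Vegp1 at 8.01, 8.77, 9.23, 10.07 and 9.34, those of animals 11, 13 and 21 at 4.66, 3.43 and 3.64, and those of animals 22, 25 and 26 at -0.05, -1.18 and -1.54. Vegp1 was higher in the OSCC piece of all 11 rats, and the highest normal piece, that of animal 11, lay above the 2 lowest OSCC pieces. It was well above background on all 11 OSCC arrays and on 2 normal ones. The mean difference was 9.69 ± 5.22 (SD, n = 11), and 6.88 with normexp background correction. Vegp1 has 10 spots on the array, whose log2 signals on an OSCC array had SDs from 0.032 to 0.166, a spread within the array only. Vegp2 ranged from 0.10 to 10.22 in OSCC, with a median of 5.75, and from -6.03 to -0.17 in normal tissue, with a median of -4.10. Its 2 tissues did not overlap, its mean difference was 9.41 ± 4.89 (SD, n = 11), and it was well above background on all 11 OSCC arrays and 4 normal ones.

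Lipf encodes the acid lipase of lingual and gastric secretion. It ran from -1.09 through a median of 4.77 to 10.39 in OSCC and from -4.91 through -3.85 to 0.09 in normal tissue, with a mean difference of 8.73 ± 4.95 (SD, n = 11) and 3 normal arrays well above background. It was higher in all 11 OSCC pieces than in their own normal pieces, while the normal piece of animal 11 exceeded 2 OSCC pieces of other rats.

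Of the BPI-fold genes, RGD1563047 (Bpifb1) had levels from -1.09 to 10.17 in OSCC, with a median of 4.84, and from -6.02 to -0.02 in normal tissue, with a median of -4.26 and 3 arrays well above background. It was higher in 10 of 11 OSCC pieces, the exception being animal 25, whose normal piece was at -0.02 and OSCC piece at -0.92. Plunc (Bpifa1) reached 8.59 in OSCC, with a median of 0.78 and a lowest level of -4.36, and lay between -6.35 and -4.50 in normal tissue, without overlap. No normal array had Plunc well above background, and its mean level in OSCC was at least 77.3-fold higher, against the lowest signal well above background on each normal array. Vegp2 and Plunc were the 2 of the 10 genes whose lowest OSCC piece exceeded the highest normal piece, which held for 0.624% of all gene names. For Plunc this rests on readings near background, the lowest OSCC piece, that of animal 26 at -4.36, not being well above background either.

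LOC171161 (Csap1, common salivary protein 1) and Prb1 (Prpmp5, a proline-rich protein) were well above background on none of the normal arrays, and on 9 and 8 OSCC arrays. LOC171161 ran from -5.61 through 1.50 to 8.56 in OSCC, and its mean level was at least 88.5-fold higher there. It was higher in 10 of 11 OSCC pieces, with a difference of -0.76 in animal 26. Prb1 ran from -6.17 through 0.77 to 8.64, and its mean level was at least 45.8-fold higher. It was higher in 9 of 11 OSCC pieces, with differences of -0.32 in animal 25 and -1.14 in animal 26. The OSCC pieces without a clear Prb1 signal were those of animals 22, 25 and 26, and those without LOC171161 were 22 and 26.

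Amy1a, salivary amylase, differed from the others in having signal in most normal pieces. It was well above background on 9 of 11 normal arrays, in a narrow band from -4.08 to -2.35 with a median of -2.94. In OSCC it ran from -3.99 through 2.31 to 9.57, a mean difference of 6.62 ± 5.18 (SD, n = 11). Animals 25 and 26 had less Amy1a in the OSCC piece than in the normal one, by -1.19 and -0.84.

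Car6, the carbonic anhydrase of saliva, was well above background on 1 of 22 arrays, the OSCC piece of animal 4, at a level of -5.15. Its levels ran from -6.29 to -4.51 in OSCC and from -6.11 to -4.82 in normal tissue. The mean difference was 0.31 ± 0.86 (SD, n = 11), smaller than its spread, and its other probe gave -0.39. At signals this low, a difference in Car6 was not detectable on these arrays.

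The genes moved together from tumor to tumor. For 8 of the 10 genes, all but Tff2 and Car6, the 5 highest OSCC pieces were those of animals 4, 9, 16, 17 and 24, and the 3 lowest those of animals 22, 25 and 26. The mean level of these 8 genes was -2.87 in the OSCC piece of animal 26, -2.17 in 25, -1.40 in 22, 2.12 in 13, 2.21 in 21 and 3.13 in 11. It then stepped by 4.12, or 33.3% of the whole range of 12.39, to 7.25 in animal 4, and was 8.21 in 9, 8.27 in 24, 8.50 in 16 and 9.53 in 17. Animals 9 and 24 differed by 0.06 and animals 13 and 21 by 0.09, and the other steps between neighbours were 0.23 to 1.02, apart from the step of 4.12 and one of 3.52 between animals 22 and 13. The median range of all gene names over the OSCC arrays was 2.05 log2 units, and those of the 8 genes were between 10.11 for Vegp2 and 14.81 for Prb1.

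**Figure D2:**
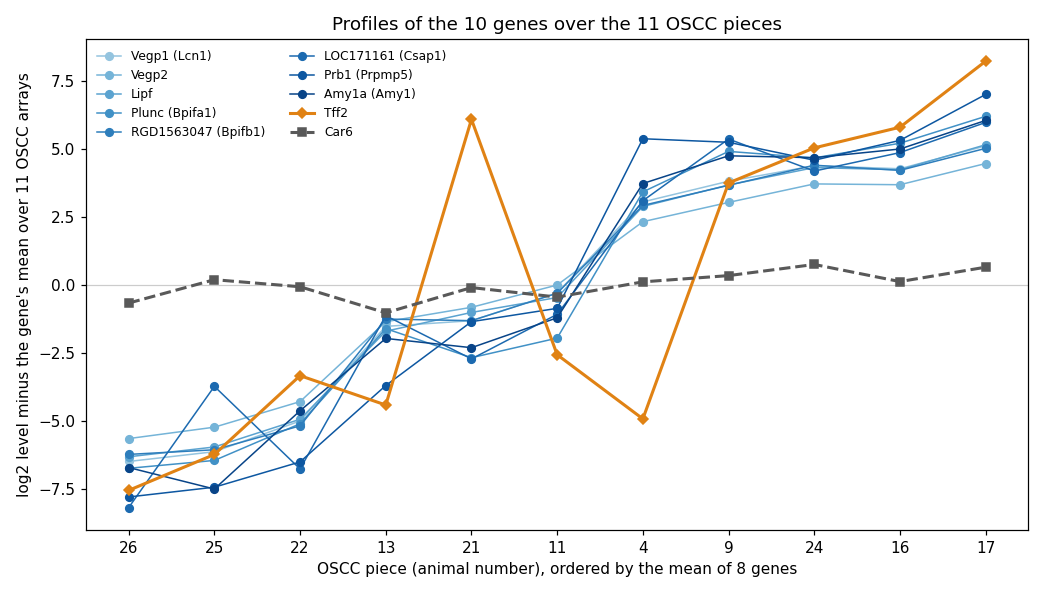
Log2 level of each of the 10 genes minus its own mean over the 11 OSCC arrays (y axis), in OSCC pieces ordered by the mean of 8 genes (x axis, animal numbers). The 8 genes in blue climb together, Tff2 (orange) is low in animal 4 and high in animal 21, and Car6 (dashed grey) hardly varies.

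Pearson's r between pairs of these 8 genes over the 11 OSCC arrays lay between 0.954 and 1.000, with a median of 0.988, and Spearman's rho between 0.909 and 1.000. These correlations describe arrays that fall into separate sets, so that a pooled r mainly records the sets. The 10 genes were chosen with their movement known, and Tff2 and Car6, which did not follow the rest, were left out of the 8. A high r among the 8 was thus partly fixed by these choices and is a description only. Over the 6 OSCC pieces below the widest step r of the 28 pairs ran from 0.726 to 0.999, but these pieces again form sets 3.52 apart, so that this r records them too. Over all 10 genes the median of the 45 pairs was 0.967, and it was 0.965 over the 9 OSCC arrays scanned on 1 day. Pairs with Car6 had r from 0.578 to 0.635 over the 11 arrays and from -0.441 to 0.259 over the 6. Vegp1, Lipf and RGD1563047 were closest, the difference between Vegp1 and RGD1563047 having an SD of 0.15 log2 units over OSCC pieces that spanned 11.61 units of Vegp1.

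In the 5 highest pieces 4 of the genes gave some of the brightest signals of the whole array. Lipf was the brightest of all 30367 probes on the OSCC arrays of animals 4, 9, 16 and 17 and the second brightest on that of animal 24. On these 5 arrays the signals of Vegp1, Vegp2, Lipf and RGD1563047 were between 79.7% and 100% of the brightest probe, and on the other 6 OSCC arrays between 0.0731% and 13.4%. No member probe carried the software's saturation flag on any array. Whether levels were compressed at the top was not tested, and differences among these 5 pieces in the 4 genes are given with that limit.

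**Figure D3:**
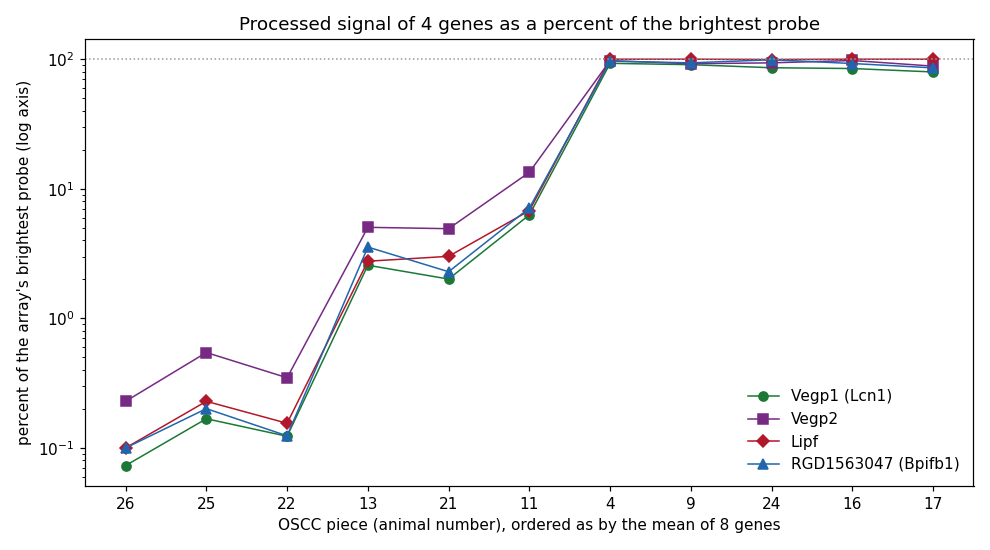
Processed signal of Vegp1, Vegp2, Lipf and RGD1563047 as a percent of the brightest probe of the same array (y axis, log scale), over the 11 OSCC pieces in the order of the mean of 8 genes (x axis, animal numbers). In animals 4, 9, 24, 16 and 17 all 4 lie between 79.7% and 100%, and in the others at 13.4% or less.

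Tff2, a trefoil peptide that is packed with mucins, did not follow the other genes in 2 animals. It ran from -6.34 through -1.35 to 9.45 in OSCC and from -6.74 to -4.15 in normal tissue, where no array had it well above background. Its mean level was at least 34.4-fold higher in OSCC. It was higher in 10 of 11 OSCC pieces, with a difference of -1.06 in animal 26. Among its own levels over the 11 OSCC pieces, Tff2 ranked 9 from the top in animal 4, at -3.71, where the 8 genes ranked 2 to 5. In animal 21 it ranked 2, at 7.31, where the 8 genes ranked 7 or 8. The r of Tff2 with the 8 genes was between 0.696 and 0.766.

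The genes whose OSCC profile was most like that of Tff2 were sought after its values had been seen, among 12571 gene names well above background on at least 5 OSCC arrays. The first 10 by Pearson's r over 11 arrays ran from 0.973 to 0.943. They included the gel-forming mucin Muc19 (0.968), RGD1561983, described on the array as similar to Muc5b (0.950), the trefoil peptide Tff1 (0.943), the sulfotransferase Chst4 (0.947), the BPI-fold gene Bpil1, now Bpifb2 (0.962), and Gp2, a membrane protein of secretory granules (0.973). Tff1 was at -7.56 in the OSCC piece of animal 4, its lowest level, and at 2.25 in that of animal 21. Muc19 was at -6.43 and 1.14, Gp2 at -3.72 and 3.39, and Bpil1 at -1.79 and 5.34 in the same pieces. In animal 17, where Tff2 peaked at 9.45, these 4 genes peaked too, at 4.56, 3.67, 6.51 and 8.28. Tff1 and Muc19 were well above background on only 5 of the 11 OSCC arrays, Gp2 on 7 and Bpil1 on 11. The r of Tff1 and Muc19 therefore rests in part on readings near background. The OSCC array of animal 4 had the highest 75th percentile, 1414 signal units, and a background reading falls lower after scaling on such an array.

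**Figure D4:**
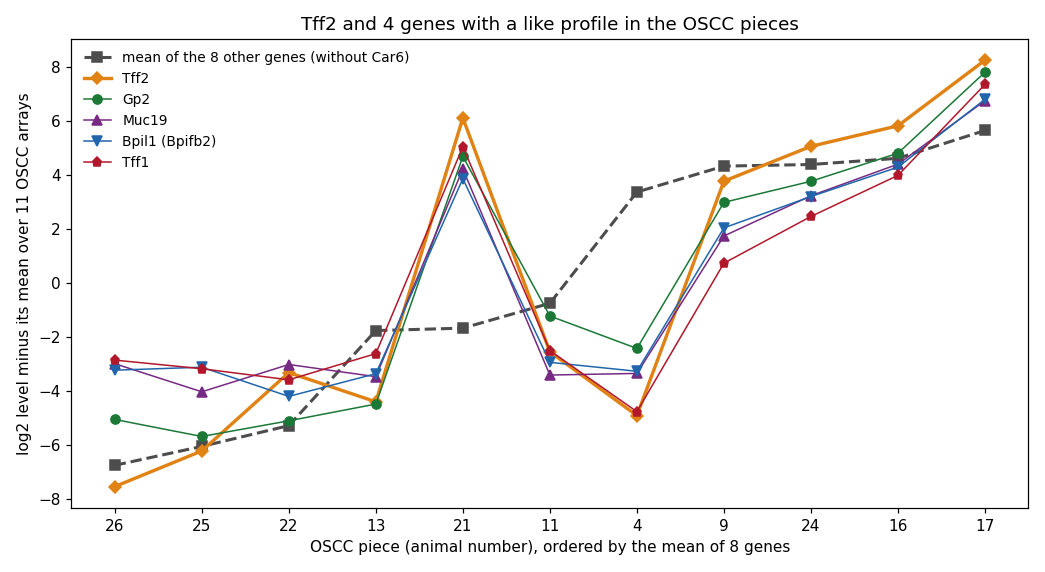
Log2 level minus its own mean over the 11 OSCC arrays (y axis) of Tff2, Gp2, Muc19, Bpil1 and Tff1 in the 11 OSCC pieces (x axis, animal numbers, ordered by the mean of the 8 other genes, dashed grey). Tff2 and the 4 genes are low in animal 4 and peak in animals 21 and 17, whereas the mean of the 8 genes climbs from left to right. Tff1 and Muc19 were well above background on 5 of the 11 arrays, so that their low points lie near background.

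Some normal pieces held gland transcripts as well. Of the 10 genes, 5 were well above background in the normal pieces of animals 11 and 21, 4 in that of animal 25, 2 in that of animal 22, 1 in those of animals 9, 16, 17, 24 and 26, and none in those of animals 4 and 13. In the normal piece of animal 11, Vegp2 was at -0.17, Lipf at 0.09 and Vegp1 at -1.11, against -4.42, -4.55 and -5.92 in that of animal 4. These normal pieces were not those of the rats with the highest OSCC levels. Of the 5 rats with the highest OSCC pieces, none had more than 1 of the genes well above background in its normal piece.

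The 20 genes outside the 10 whose profile over the OSCC arrays was most like the mean of the 10 had r from 0.991 to 0.944, among 12260 gene names well above background on at least 6 OSCC arrays, 47 of which exceeded 0.9. Pax1, a paired-box transcription factor, came first at 0.991. Secreted products among the 20 were Fcgbp (0.978), an IgG Fc-binding protein of mucus, RGD1311906, now Fcgbpl1 (0.965), Sgp158, now Prb3 (0.954), Psp, now Bpifa2 (0.953), and Smgb, now Bpifa2f (0.948). Proteins of the secretory epithelium itself were the water channel Aqp5 (0.957), the tight-junction proteins Cldn10 (0.966) and Cldn3 (0.953), the transporter Slc44a4 (0.951) and the simple-epithelium keratin Krt18 (0.951). Pigr (0.960), which carries IgA across gland epithelium, and Ccl28 (0.969), a chemokine that attracts IgA-secreting cells, were also among them. The others were RGD1310209, LOC303341, Rhpn2, LOC100363867, RGD1559532, RGD1565709 and Cxadrl1. Fcgbp, RGD1310209, Ccl28, Psp and Smgb were well above background on only 6 OSCC arrays, and RGD1311906, Cldn3 and RGD1559532 on all 11. The r of genes with few such arrays rests in part on readings near background. Each r also mainly records the separate sets of arrays. The 5 most opposite were Prdm11 at -0.868, RGD1306839, Selt, Edc4 and Snupn at -0.838.

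Of 54 other genes of salivary secretory proteins, limma called 22 higher in OSCC and 4 lower, 40.7% and 7.41%, against 6.64% and 7.06% of all gene names. Their median difference was 0.87, or 0.14 with undetected genes at their limit. Bpifb2 rose by 4.80 ± 1.08 log2 units (SE, adjusted p = 0.0049). The next largest fitted differences were in genes well above background on no normal array, so that their folds are lower limits. Folds measured for some other genes of the list exceeded these limits. Psp was at least 6.59-fold higher in tumors (adjusted p = 0.023, limma), the secretoglobin Scgb1a1 at least 8.45-fold (adjusted p = 0.0045) and Bpifa2f at least 6.01-fold (adjusted p = 0.022). The odorant-binding lipocalins Obp2a and Obp3 fell by 2.26 (adjusted p = 0.00098, limma) and 1.63 (adjusted p = 0.019), and Folr1, the folate receptor, by 1.47 (adjusted p = 0.041). Klk1c10, also called lower, was well above background on 1 normal array and no OSCC array. Of the 54 genes, 14 were well above background on no array of either tissue, among them Smr3a, Smr3b, Prol1, Pip, Spt1 and Klk1, known as products of major salivary or lacrimal glands. Other genes named for major glands were detected. Psp, the parotid secretory protein, and Bpifa2f, annotated as a neonatal submandibular gland protein, were each well above background on 6 OSCC arrays.

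Of 42 acinar and fluid secretion genes, 16 were called higher and 2 lower, 38.1% and 4.76%, with a median difference of 0.82, or 0.52 with undetected genes at their limit. Well above background on no normal array, Aqp5 was at least 7.49-fold higher in tumors (adjusted p = 0.0063, limma), Bhlha15, a transcription factor of zymogen-secreting cells, at least 7.87-fold (adjusted p = 0.00073) and Krt18 at least 13.1-fold (adjusted p = 0.0032). Aqp5 was well above background on 7 of the 11 OSCC arrays, Bhlha15 on 10 and Krt18 on 9. Krt8, the keratin partner of Krt18, rose by 4.32 ± 0.54 log2 units (SE, limma adjusted p = 0.00027). Atp1b1, a subunit of the sodium pump, fell by 1.79 (adjusted p = 0.0017), and Stim1, the calcium sensor of the endoplasmic reticulum, by 1.15 (adjusted p = 0.0015). Of 32 mucous gland genes, 14 were called higher and 1 lower, 43.8% and 3.12%, with a median of 1.11, or 0.16 with undetected genes at their limit. Agr2, which helps mucins to fold, rose by 3.36 ± 0.91 log2 units (SE, adjusted p = 0.013). Undetected in normal tissue, Fcgbp was at least 4.12-fold higher in tumors (adjusted p = 0.022, limma), the mucin glycosyltransferase Gcnt3 at least 2.43-fold (adjusted p = 0.012) and Tff1 at least 2.16-fold (adjusted p = 0.045). Fcgbp was well above background on 6 of the 11 OSCC arrays, Gcnt3 on 7 and Tff1 on 5, so that these rises were seen in part of the tumors. St6galnac1 was called lower, with 2 normal arrays and no OSCC array well above background. Spdef and Creb3l1 belong to both of these lists.

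Summed over each list, the level of the acinar genes had r = 0.80 with the mean of the 10 genes over the OSCC arrays, that of the mucous genes 0.75 and that of the other salivary genes 0.72. The values for markers of other cell types were 0.33 for skeletal muscle, 0.03 for taste cells, -0.09 for neutrophils, -0.27 for plasma cells, -0.36 for macrophages and -0.42 for squamous epithelium. Such a sum is set mainly by the brightest genes of its list. The median r of single genes was 0.63 for the acinar, 0.55 for the mucous and 0.34 for the other salivary list. It was 0.32 for muscle, 0.19 for taste cells, -0.39 for neutrophils, -0.23 for plasma cells, -0.37 for macrophages and -0.35 for squamous epithelium. Within the plasma cell list Derl3 (0.76) and Fkbp11 (0.74) went the other way. These are descriptions over 11 arrays that share the scaling.

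**Figure D5:**
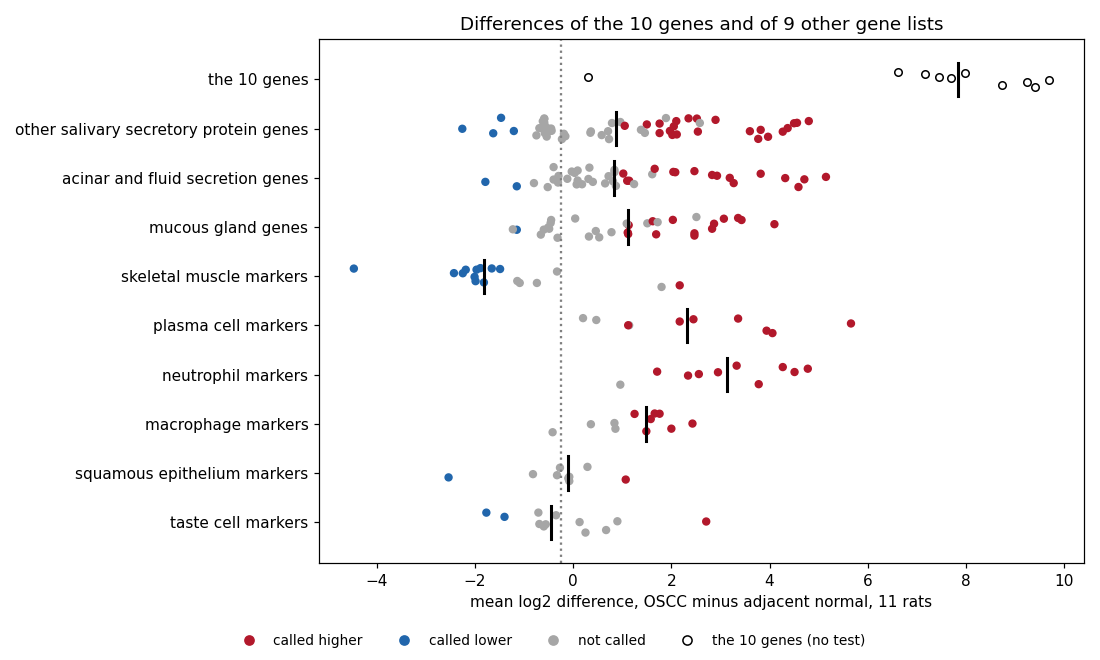
Mean log2 difference, OSCC minus adjacent normal over 11 rats (x axis), for each gene (point) of the 10 genes and of 9 other lists (y axis), as fitted also where normal tissue gives only a bound, with the list's median as a black bar and the median of all gene names (-0.25) as a dotted line. The 10 genes lie to the right of all the other genes drawn, apart from Car6 at 0.31.

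The tissue itself differed too. Neutrophil markers were called higher for 9 of 10 genes, plasma cell markers for 7 of 10, macrophage markers for 7 of 11 and none of these lower, and skeletal muscle markers were called lower for 11 of 17 and higher for 1. Squamous epithelium markers (1 of 9 higher, 1 lower) and taste cell markers (1 of 12 higher, 2 lower) were mixed. In log2 differences, S100a9 (4.78), Krt20 (2.71), Myh2 (2.17) and Dsg3 (1.07) were among the genes called higher, and Myh4 (-4.47), Krt15 (-2.54) and Tas1r1 (-1.77) among those called lower. Mzb1, a plasma cell gene, was at least 11.9-fold higher, and the macrophage receptor Msr1 at least 1.28-fold. Squamous keratins Krt5, Krt13 and Krt14 and the muscle gene Ckm were well above background on all 22 arrays, as tongue tissue would have. The defining taste genes Trpm5 and Calhm1 were well above background on no array, the only 2 of the 12 taste genes of which this held. Plcb2 was well above background on 6 OSCC arrays, Gnat3 on 2, and Tas1r1 on 9 normal and 3 OSCC arrays.

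The summed muscle level ran from 6.98 to 12.06 in OSCC and from 10.89 to 11.90 in normal pieces, and the OSCC pieces of animals 21, 22 and 24 had 12.06, 11.73 and 11.99. The summed neutrophil level, from 1.20 to 8.65 in OSCC and 0.30 to 2.44 in normal tissue, was lowest in the OSCC piece of animal 24, at 1.20, where the 8 genes averaged 8.27. The squamous level was also lowest there, at 7.98 against 9.35 in its normal piece. Without the pairs of animals 21, 22 and 24 the same 9 of the 10 genes were called higher. Over all 30367 probes 2639 were then called higher and 4285 lower, more than with all pairs. The part of muscle, inflammatory cells or epithelium in these results was not tested.

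The scan day was shared by all normal arrays and the OSCC arrays of animals 4 and 9, the 9 remaining OSCC arrays having been scanned on a different day, and no slide held both tissues, so that slide and tissue cannot be told apart. In the pairs scanned on 1 day, Vegp1 was higher in OSCC by 13.93 in animal 4 and 14.51 in animal 9, Amy1a by 11.33 and 10.62, and Tff2 by 2.52 and 11.05. With scan day as a further term none of the 10 genes was called, and 0 genes of the other 3 gland lists (limma, adjusted p). At an unadjusted p below 0.05, 8 of the 10 were called higher, all but Tff2 and Car6, against 6.19% of all gene names. Over all 30367 probes this fit leaned downward, with 1923 higher and 7655 lower. It called 22 other salivary genes higher and 13 lower, 14 acinar genes higher and 0 lower, and 6 mucous genes each way. With slide as a random block and no term for the rat, 9 of the 10 were called higher, against 2039 of 30367 probes. As no slide held both tissues, that fit cannot separate slide from tissue either.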

How the data were processed

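RNA of 11 OSCC and 11 adjacent normal tongue pieces was hybridised to Agilent Rat 4x44K arrays with 42877 spots for 30367 probes. The intensity values deposited by the authors are Feature Extraction 9.5.3.1 processed signals, corrected for background and spatial trend, without scaling from array to array. A second table deposited by the authors holds these signals as a ratio to the array's 75th percentile, with a floor of 0.01. Here, control spots and 9196 outlier spots (0.975%) were left out, log2 signals were averaged per probe and the 75th percentile subtracted. It ranged from 236.8 to 1414 signal units, and 48.42% to 65.49% of probes were well above background. The number of arrays limits the precision.

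The comparison of tissues used limma 3.58.1 (R 4.3.3) with terms for the rat and the tissue, over all probes. The pairing comes from the rat that gave both pieces, and the deviations of its pieces had correlations from -0.21 to 0.24 across probes. The fit was tested on simulated data. The members, lists and named-gene rule (all members, at most 4 rises and 4 falls per list, defining markers, 20 most alike and 5 most opposite genes) were chosen with earlier results of these data known. Folds against tissue without signal are lower limits of the fold between mean levels, not of each pair. The OSCC mean takes in arrays on which the probe was not well above background. Names were matched to RefSeq of GRCr8. Scaling, background correction, filter, test, block, batch and left-out pairs were varied.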

Additional observations from a re-analysis of the deposited data

How the results depend on the processing

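The same direction was kept by all 9 called members under the scalings, filters and left-out pairs tried, and leaving out any 1 pair left 9 of the 10 called. The mean difference of Vegp1 then ran from 9.08 to 10.37 and that of Car6 from 0.19 to 0.45. The difference of LOC171161 was 13.28 in the pair of animal 9 alone, against a mean of 7.99. Without the replicate block (the pairing by rat) 9 members and 4227 probes were called, against 4201 with it, and no list count moved by over 1.5 times. Over all probes 2083 were called higher and 2118 lower, and 1541 and 3154 when arrays were scaled to their median, under which 9 members were called. With normexp background correction 1701 probes, 12 other salivary, 11 acinar and 3 mucous genes were called, against 4201, 26, 18 and 15. Under it 8 members were called, Tff2 not among them, and the differences shrank, that of Vegp1 from 9.69 to 6.88, of LOC171161 from 7.99 to 4.79 and of Tff2 from 7.16 to 4.20. Restricted to probes well above background on at least 11 arrays, 5 members (all 5 that remained), 17 other salivary and 8 mucous genes were called. That filter leaves fewer probes to test. With scan day as a further term 3 probes, 0 members, 0 other salivary, 0 acinar and 0 mucous genes were called at the adjusted threshold. At an unadjusted p, chosen after seeing the data, 9578 probes were, 1923 higher and 7655 lower. That fit takes its tissue term from 2 pairs scanned on 1 day. Without the pairs of animals 21, 22 and 24, also chosen after seeing the data, 6924 probes were called, 2639 higher and 4285 lower. The cause of these shifts was not tested. The methods' t-test called 9 members, at an unadjusted p under 0.05 and after Benjamini-Hochberg adjustment. The median correlation of the members stayed between 0.96 and 0.985 without any 1 OSCC array. Low signal limits Car6, and for Prb1, LOC171161, Plunc and Tff2 it limits the normal level to a bound.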
